A study of Mus musculus with 6 samples.

Results

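The Ly6 genes described here are Ly6a, Ly6c1, Ly6c2, Ly6e and Ly6k, 5 neighbouring genes of mouse chromosome 15 among the 14777 genes of the deposited count table. They were listed by name, with their values in these same libraries already known, and all 5 were found in the table and passed the filter on low counts. The study compared regulatory T cells (Treg) that carry FOXP3 ΔE2, the form of the transcription factor FOXP3 without exon 2, with Treg that carry FOXP3 FL, the full-length form, and asked which target genes the forms regulate differently. Each genotype had 3 polyadenylated RNA libraries. All cells were C57BL/6 and had been naive CD4 T cells, induced for 3 days by anti-CD3 on the plate and anti-CD28 at 1 µg/ml each, 5 ng/ml of TGFβ and 20 ng/ml of IL-2. Over 90% of the cultured cells were FOXP3 positive, per the labels. Neither the way in which the FOXP3 ΔE2 cells were made nor the animals or cultures behind each replicate number are stated, so p-values measure the spread between libraries, which may be technical.

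Ly6 proteins are small, disulfide-rich domains that sit on the outer leaf of the cell membrane, held by a glycosylphosphatidylinositol (GPI) anchor. Ly6a encodes Sca-1, the stem cell antigen of mouse blood progenitors, which T cells also carry after activation and which interferons induce. Ly6c1 and Ly6c2 are near-identical copies that together make up the Ly6C antigen of monocytes and of activated and memory T cells. Ly6e encodes a thymocyte antigen that also acts in virus entry, and Ly6k is known mainly from the testis, where it serves sperm function together with Tex101.

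The genes lie within 315.1 kb, in the order Ly6k, Ly6e, Ly6a, Ly6c1 and Ly6c2 by increasing coordinate. On build mm10, Ly6k (ENSMUSG00000044678.11) spans chr15:74796874-74799986 on the minus strand and Ly6e (ENSMUSG00000022587.14) spans chr15:74955051-74959905 on the plus strand. Ly6a (ENSMUSG00000075602.10) spans chr15:74994877-74998031, Ly6c1 (ENSMUSG00000079018.10) spans chr15:75044018-75048830 and Ly6c2 (ENSMUSG00000022584.14) spans chr15:75108158-75111970, all on the minus strand. Ly6c1 and Ly6c2 are separated by 59.3 kb.

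The coding sequences of the Ly6C pair are shown where the copies differ, since a read can be assigned to one copy only where they differ. They lie at chr15:75045405-75048511 for Ly6c1 and chr15:75108546-75111667 for Ly6c2 (mm10, minus strand, GENCODE). Bases 1 to 90 from the start codon and bases 244 to 393, where the coding sequence ends before the stop codon, run 5′ to 3′, and capitals mark the bases at which the copies differ.
Ly6c1 bases 1 to 90: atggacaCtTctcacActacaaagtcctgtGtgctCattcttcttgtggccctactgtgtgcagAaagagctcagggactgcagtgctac
Ly6c2 bases 1 to 90: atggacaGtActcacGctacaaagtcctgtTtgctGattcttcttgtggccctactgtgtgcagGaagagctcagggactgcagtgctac
Ly6c1 bases 244 to 393: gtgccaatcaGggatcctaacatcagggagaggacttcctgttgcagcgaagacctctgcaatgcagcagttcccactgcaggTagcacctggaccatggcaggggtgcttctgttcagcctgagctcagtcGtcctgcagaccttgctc
Ly6c2 bases 244 to 393: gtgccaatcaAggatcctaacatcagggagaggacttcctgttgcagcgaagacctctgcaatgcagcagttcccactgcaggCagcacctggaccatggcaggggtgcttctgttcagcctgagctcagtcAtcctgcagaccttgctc
The copies differ at 9 of 393 bases, 6 in the opening stretch and 3 in the closing one, an identity of 97.7%. The longest stretch without a difference is 188 bases, from base 66 to base 253 of the coding sequence. Ly6a is the next closest member, with 81.8% identity to Ly6c1 and 81.6% to Ly6c2 over the alignment, whereas Ly6e and Ly6k reach at most 53.5% with any other member. Of all 50-base words in the coding transcripts of Ly6c1, 32.8% also occur in another gene, mainly Ly6c2 and Ly6a. The share was 31.2% for Ly6c2, 19.0% for Ly6a and 0% for Ly6e. For Ly6k it was 32.7%, all of it with Gm17189, an antisense gene that covers 395 of the 829 exon bases of Ly6k. The reads carry no strand, and how reads that match several genes were counted is not stated. The values of Ly6k may therefore include reads of Gm17189, and the split of reads among Ly6c1, Ly6c2 and Ly6a is uncertain.

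The windows upstream of the copies were less alike than the coding sequences. The 250 bases before each RefSeq start (GRCm38.p6, minus strand, chr15:75048838-75049087 for Ly6c1 and chr15:75111972-75112221 for Ly6c2) are printed 5′ to 3′, with capitals for bases that differ from the other copy or have no partner there.
Ly6c1 upstream: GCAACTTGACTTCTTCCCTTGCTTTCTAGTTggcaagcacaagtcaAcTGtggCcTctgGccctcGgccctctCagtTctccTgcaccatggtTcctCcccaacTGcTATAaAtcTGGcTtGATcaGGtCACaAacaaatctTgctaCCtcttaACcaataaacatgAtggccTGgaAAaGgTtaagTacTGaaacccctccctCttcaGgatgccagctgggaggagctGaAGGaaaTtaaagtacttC
Ly6c2 upstream: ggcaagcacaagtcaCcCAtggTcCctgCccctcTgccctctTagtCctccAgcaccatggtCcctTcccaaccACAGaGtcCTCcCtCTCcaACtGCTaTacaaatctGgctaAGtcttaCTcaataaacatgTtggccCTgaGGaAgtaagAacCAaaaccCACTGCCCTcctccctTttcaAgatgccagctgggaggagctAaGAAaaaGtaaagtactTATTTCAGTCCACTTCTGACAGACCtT
Aligned with each other they share 164 identical bases over 284 columns, or 57.7%, with 68 columns of gaps counted as not identical. The windows are offset, since the opening run of capitals in Ly6c1 lies before the first Ly6c2 base. The long run of capitals near the end of Ly6c2 likewise has no partner in the Ly6c1 window. Part of the gaps therefore reflects where the windows were cut, and identity over the paired bases alone is higher. A search of both strands for TTCNNNGAA (the STAT type of site), the core of the interferon response element and TGTTTAC (the forkhead type) gave 0 matches in either window. Those words occur in 7.02%, 2.98% and 3.17% of 32851 mouse promoter windows of the same length. The search says only that these letters are not in these windows.

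Every one of the 5 genes had higher CPM (read counts scaled to library size) in FOXP3 ΔE2 Treg than in FOXP3 FL Treg, with no overlap between the groups, from 5.81-fold for Ly6c2 to 1.26-fold for Ly6e. Of all tested genes, 27.1% had groups that did not overlap, and 13.6% had them with FOXP3 ΔE2 higher. Since the genes were chosen on this contrast, their values are given as a description and without a test. The edgeR quasi-likelihood test (adjusted p under 0.05) called 6.17% of the 14632 tested genes, 3.75% as higher and 2.43% as lower, and 3 of the 5 Ly6 genes, namely Ly6a, Ly6c1 and Ly6c2. DESeq2 called Ly6e as well, when it called 9.88% of the 11511 genes it gave an adjusted p. With the replicate number as a block all 5 were called, when 21.5% of all genes were. All fold changes below are FOXP3 ΔE2 over FOXP3 FL, on the log2 scale with a standard error (SE) unless a fold is named.

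**Figure D1:**
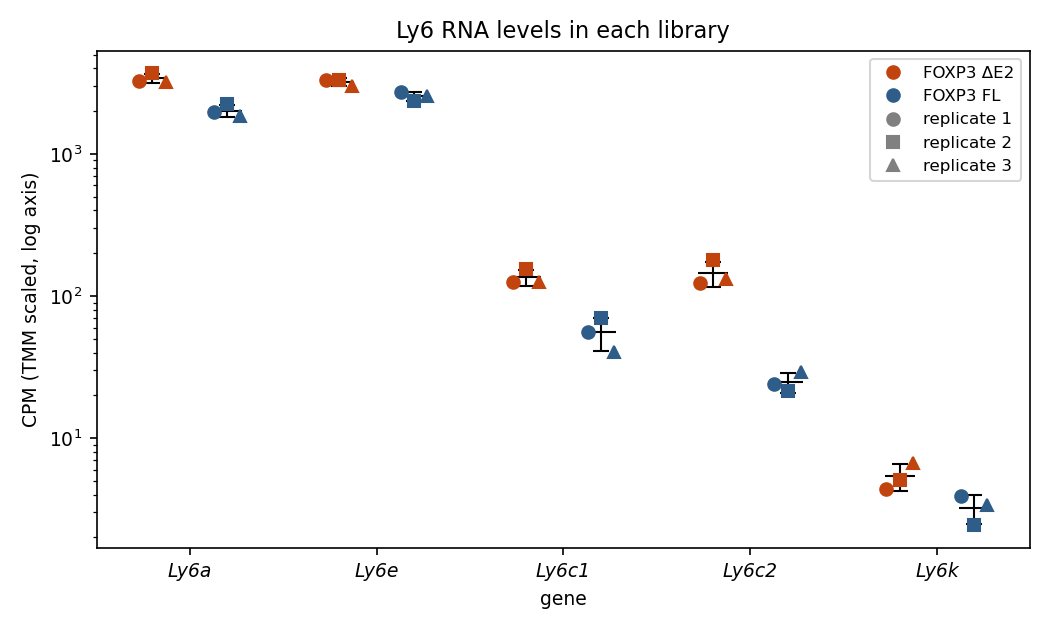
CPM of the 5 Ly6 genes in each library (log axis), with FOXP3 ΔE2 libraries left of FOXP3 FL libraries, points for libraries and bars for the mean. For each gene the 3 FOXP3 ΔE2 points lie above the 3 FOXP3 FL points, with the widest gap for Ly6c2 at 145 against 24.9 CPM on average.

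Total counts per library were 13307155 to 16140432, and the biological coefficient of variation of the fit was 13.1%. The test called 548 genes higher and 355 lower in FOXP3 ΔE2 Treg, a split that became 264 higher and 954 lower without the TMM composition factor, which moved the log2 fold change of the median gene by -0.13. With the replicate number as a block 1678 were called higher and 1471 lower, 21.5% of the tested genes. Foxp3 itself had 436, 403 and 335 CPM in FOXP3 ΔE2 libraries, against 447, 397 and 337 CPM in FOXP3 FL libraries. These counts cover all exons of the gene and do not check the loss of exon 2. All 10 T cell and Treg markers had rows in the table, and their summed level was 13405 to 16713 CPM in FOXP3 ΔE2 libraries and 12386 to 13441 CPM in FOXP3 FL libraries.

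Ly6c2 had 124, 179 and 131 CPM in the FOXP3 ΔE2 libraries, against 23.9, 21.5 and 29.4 CPM in the FOXP3 FL libraries. The lowest FOXP3 ΔE2 library lay far above the highest FOXP3 FL library. The means were 145 ± 29.6 CPM in FOXP3 ΔE2 Treg and 24.9 ± 4.03 CPM in FOXP3 FL Treg (SD, n = 3 each), a log2 fold change of 2.54 ± 0.16. With each library left out in turn it stayed between 2.36 and 2.67.

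Ly6c1 had 125.5, 155 and 124.9 CPM in the FOXP3 ΔE2 libraries, against 56.1, 70.1 and 40.7 CPM in the FOXP3 FL libraries. Here too the groups stood apart, by less than for Ly6c2. The means were 135 ± 17.2 CPM in FOXP3 ΔE2 Treg and 55.6 ± 14.7 CPM in FOXP3 FL Treg, a log2 fold change of 1.28 ± 0.17, or 2.43-fold. FOXP3 FL replicate 3 had the lowest Ly6c1 value and the highest Ly6c2 value of its group.

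Within the pair, Ly6c2 took 49.8%, 53.6% and 51.3% of the reads counted for Ly6c1 and Ly6c2 together in the FOXP3 ΔE2 libraries (95% exact binomial intervals 48.2% to 51.4%, 52.1% to 55.1% and 49.6% to 52.9%). In the FOXP3 FL libraries it took 29.9%, 23.5% and 41.9% (27.3% to 32.5%, 21.4% to 25.7% and 38.8% to 45.1%). The copies were thus counted about equally in all FOXP3 ΔE2 libraries, while Ly6c1 led in all FOXP3 FL libraries, which spread more widely. The mean share was 51.5 ± 1.91% in FOXP3 ΔE2 Treg and 31.8 ± 9.35% in FOXP3 FL Treg. The intervals cover counting error only, and each library gave 3714 to 4309 reads for the pair in FOXP3 ΔE2 Treg and 990 to 1540 in FOXP3 FL Treg. Summed over the pair, a measure that does not depend on how reads were split between the copies, the level was 280 ± 46.7 CPM in FOXP3 ΔE2 Treg and 80.5 ± 10.8 CPM in FOXP3 FL Treg, a log2 fold change of 1.80 ± 0.14.

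**Figure D2:**
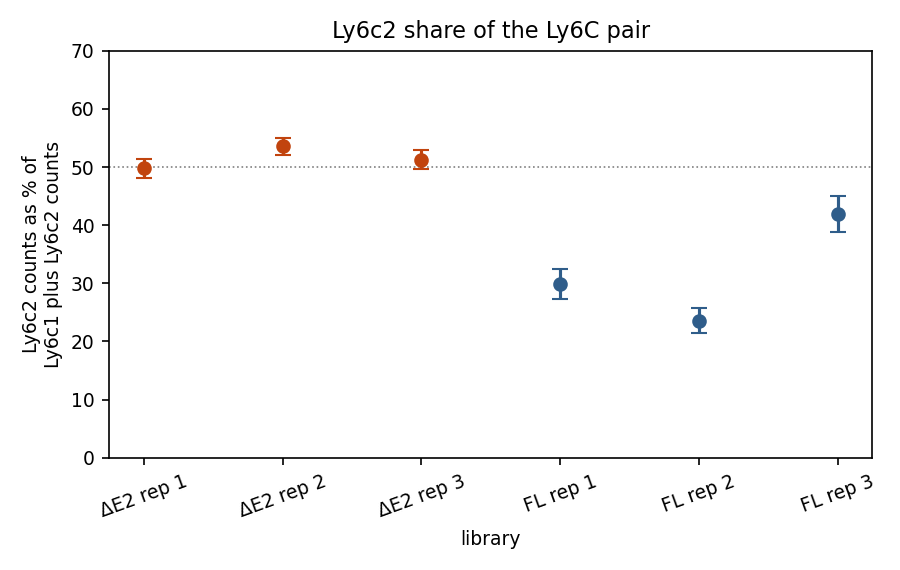
Share of Ly6c2 in the reads counted for Ly6c1 and Ly6c2 together (percent, linear axis) in each library, FOXP3 ΔE2 left of FOXP3 FL, with 95% exact binomial intervals as bars. The FOXP3 ΔE2 libraries cluster between 49.8% and 53.6%, and the FOXP3 FL libraries spread from 23.5% to 41.9%.

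Ly6a, the gene of Sca-1, had 3270, 3689 and 3225 CPM in the FOXP3 ΔE2 libraries, against 1958, 2235 and 1862 CPM in the FOXP3 FL libraries. All FOXP3 ΔE2 libraries were higher. The means were 3394 ± 256 CPM in FOXP3 ΔE2 Treg and 2018 ± 193 CPM in FOXP3 FL Treg, a log2 fold change of 0.75 ± 0.14, or 1.68-fold. The difference between the means in CPM was the largest of the 5 genes.

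Ly6e, the thymocyte antigen gene, had 3297, 3333 and 2997 CPM in the FOXP3 ΔE2 libraries, against 2715, 2362 and 2554 CPM in the FOXP3 FL libraries. The groups did not overlap, although the gap between the nearest libraries was narrow. The means were 3209 ± 185 CPM in FOXP3 ΔE2 Treg and 2544 ± 177 CPM in FOXP3 FL Treg, a log2 fold change of 0.34 ± 0.14, the smallest of the 5. It was 0.20 without the composition factor.

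Ly6k had the lowest level of the 5, with 66, 66 and 97 reads in the FOXP3 ΔE2 libraries, against 58, 41 and 48 reads in the FOXP3 FL libraries. As CPM these were 4.42, 5.11 and 6.69 in FOXP3 ΔE2 Treg, against 3.90, 2.44 and 3.40 in FOXP3 FL Treg. The groups did not overlap, but they came close. The log2 fold change was 0.74 ± 0.24, with the antisense overlap described above.

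Set per kilobase of counted exon, the order of levels was Ly6a, Ly6e, Ly6c1, Ly6c2 and Ly6k in both genotypes. Ly6a averaged 2817 ± 212 CPM per kb in FOXP3 ΔE2 Treg and 1675 ± 160 in FOXP3 FL Treg, and over all libraries it ranked 11 among all genes of the table. Ly6e averaged 848 ± 48.8 CPM per kb in FOXP3 ΔE2 Treg and 672 ± 46.7 in FOXP3 FL Treg. Ly6c1 averaged 80.6 ± 10.3 CPM per kb in FOXP3 ΔE2 Treg and 33.2 ± 8.76 in FOXP3 FL Treg, and Ly6c2 averaged 52.9 ± 10.8 in FOXP3 ΔE2 Treg and 9.10 ± 1.47 in FOXP3 FL Treg. The order of the Ly6C copies depends on which length is used. Per kilobase of the longest coding transcript, FOXP3 ΔE2 Treg had 160 for Ly6c1 and 176 for Ly6c2, while FOXP3 FL Treg had 65.9 for Ly6c1 and 30.3 for Ly6c2. The order of the copies in FOXP3 ΔE2 Treg was therefore not resolved, whereas Ly6a, Ly6e and Ly6k held their places.

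In bulk RNA, more cells of a type and more RNA per cell cannot be told apart. Monocytes, CD8 T cells, γδ T cells and NK cells also carry Ly6C, so their markers are given beside these results. Of 10 monocyte and macrophage markers 4 had rows in the table (Lyz2, Cx3cr1, Ms4a6c and Cd68), with a summed level of 71.4 to 107 CPM in FOXP3 ΔE2 libraries and 39.4 to 67.9 CPM in FOXP3 FL libraries. Of that sum Cx3cr1, which some T cells express as well, made up 47.7 to 74.5 CPM in FOXP3 ΔE2 libraries and 23.7 to 46.5 CPM in FOXP3 FL libraries. Lyz2, the macrophage lysozyme, had 14.7, 2.32 and 0.759 CPM in FOXP3 ΔE2 libraries, against 1.48, 0.178 and 1.77 CPM in FOXP3 FL libraries. The high Lyz2 value stands in FOXP3 ΔE2 replicate 1, and its part in the Ly6 results was not tested.

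Both CD8 T cell markers had rows, and their sum was 50.8 to 138 CPM in FOXP3 ΔE2 libraries and 29.0 to 53.0 CPM in FOXP3 FL libraries, with overlap. FOXP3 ΔE2 replicate 1 was again highest, with 99.2 CPM of Cd8a. Without that library the log2 fold changes were 2.64 for Ly6c2, 1.33 for Ly6c1 and 0.78 for Ly6a. The γδ T cell list had 4 of 5 markers in the table, with 289 to 481 CPM in FOXP3 ΔE2 libraries and 126 to 247 CPM in FOXP3 FL libraries, with no overlap. Of these, Tcrg-C2 (177 to 289 CPM in FOXP3 ΔE2 libraries and 78.0 to 156 CPM in FOXP3 FL libraries) and Trgv2 (104 to 176 CPM in FOXP3 ΔE2 libraries and 43.2 to 80.7 CPM in FOXP3 FL libraries) did not overlap between the groups. Tcrg-C1 (log2 fold change 0.88 ± 0.29) and Trdc (0.24 ± 0.31) did. The NK cell list had 4 of 6, with 59.3 to 103 CPM in FOXP3 ΔE2 libraries and 35.9 to 58.1 CPM in FOXP3 FL libraries. No single gene of the monocyte, CD8, γδ or NK lists passed the edgeR test. With the replicate block Cd8b1, Tcrg-C1, Tcrg-C2, Klrd1, Cd68 and Cx3cr1 were called higher, and each of the 4 sums was higher in the FOXP3 ΔE2 library in all 3 pairs of the same number. Of 9 neutrophil markers 1 had a row, Ltf, which fell to 5.08 to 5.81 CPM in FOXP3 ΔE2 libraries, against 8.33 to 12.2 CPM in FOXP3 FL libraries (adjusted p = 0.011, edgeR; 0.059 without FOXP3 ΔE2 replicate 2 and 0.075 without FOXP3 FL replicate 3). Of 6 endothelial markers 1 had a row, Pecam1, with 183 to 253 CPM in FOXP3 ΔE2 libraries and 195 to 247 CPM in FOXP3 FL libraries. The part of these markers in the Ly6 results was not tested.

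Of the 24 other genes of chromosome 15 within 1 Mb that were in the table and tested, 0 passed the edgeR quasi-likelihood test as higher and 1 as lower, with a median log2 fold change of 0.15 against -0.0043 over all genes. The 4.17% called lay near the 6.17% of all genes. Without adjustment 3 had a p under 0.05 as higher and 1 as lower, and DESeq2 called 0 as higher and 1 as lower. With the replicate number as a block 4 were called higher and 1 lower, when 21.5% of all genes were called. Scrib, a cell polarity gene 935 kb from the nearest Ly6 gene, averaged 7.69 ± 1.58 CPM in FOXP3 ΔE2 Treg and 12.1 ± 2.24 CPM in FOXP3 FL Treg (log2 fold change -0.65 ± 0.19, adjusted p = 0.048 in the edgeR test). Its call was lost without FOXP3 ΔE2 replicate 2 or 3 (adjusted p 0.25 and 0.061) and without FOXP3 FL replicate 1, 2 or 3 (0.058, 0.23 and 0.079).

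Ly6i, a close relative of Ly6a that lies 11.4 kb from the nearest of the 5 genes, averaged 13.8 ± 1.40 CPM in FOXP3 ΔE2 Treg and 10.4 ± 4.28 CPM in FOXP3 FL Treg, with overlap. Its log2 fold change was 0.40 ± 0.25 (adjusted p = 0.39, edgeR). The nearest tested gene was Gm8000, 6.42 kb away, with a log2 fold change of 0.60 ± 0.30 (adjusted p = 0.23, edgeR).

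**Figure D3:**
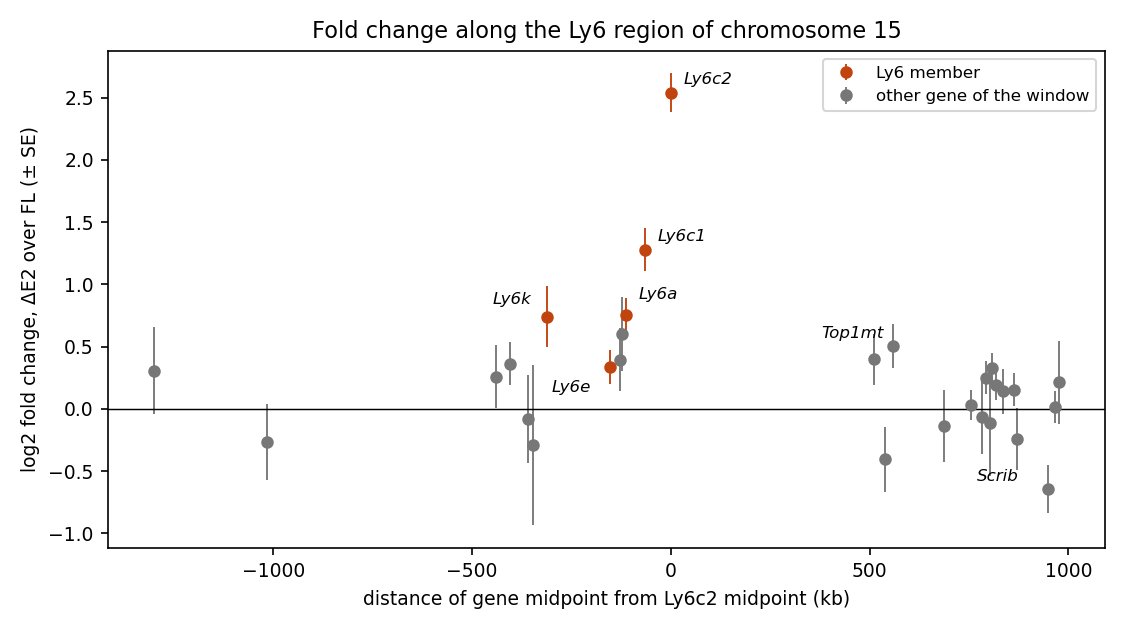
Log2 fold change of FOXP3 ΔE2 over FOXP3 FL, with SE bars, for the 5 Ly6 genes and their tested neighbours on chromosome 15, against distance from Ly6c2 in kb. Ly6c2 at 2.54 and Ly6c1 at 1.28 stand above the rest. The neighbours run from -0.65 (Scrib) to 0.60 (Gm8000) with a median of 0.15, and Ly6e at 0.34 lies within that range.

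Of 39 further genes of the wider Ly6 and urokinase receptor family, 6 were in the table and tested. Of these 0 passed in either direction by the edgeR quasi-likelihood test, against 6.17% of all genes. By an unadjusted p under 0.05 and by DESeq2 it was 0 as well, and the median log2 fold change was 0.33. With the replicate block 3 were called higher, when 21.5% of all genes were called. With 6 genes, these counts are too small to set against those shares. Plaur, the urokinase receptor gene, had 5.75, 23.6 and 31.7 CPM in FOXP3 ΔE2 libraries, against 3.70, 19.1 and 15.3 CPM in FOXP3 FL libraries. The FOXP3 ΔE2 library was the higher in each pair of the same replicate number, and the levels varied widely between numbers. Its log2 fold change was 0.67 ± 0.89 in the model that leaves the number out. Ly6d and Lynx1, both also on chromosome 15, had -0.29 ± 0.64 and -0.08 ± 0.35.

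Ly6 proteins need a GPI anchor, which is built in the endoplasmic reticulum and joined to the protein there by a transamidase. Of 31 genes of anchor synthesis, all tested, 8 rose, 0 fell and 23 did not pass (edgeR, adjusted over all genes). Their median log2 fold change was 0.24, with 27 positive values. The share called was 25.8%, against 6.17% of all genes. The list was chosen with earlier results of these data known, so this share describes the list and does not test it. Pgap1, which remodels the finished anchor, averaged 19.2 CPM in FOXP3 ΔE2 Treg and 11.5 CPM in FOXP3 FL Treg (0.74 ± 0.15, adjusted p = 0.0058, edgeR). Pigk, the catalytic subunit of the transamidase that joins anchor and protein, averaged 210 CPM in FOXP3 ΔE2 Treg and 144 CPM in FOXP3 FL Treg (0.55 ± 0.12, adjusted p = 0.011, edgeR).

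The other risers were the transamidase subunits Pigs (0.53 ± 0.13) and Pigu (0.53 ± 0.13), the ethanolamine phosphate transfer genes Pigg (0.67 ± 0.14), Pigf (0.49 ± 0.13) and Pign (0.47 ± 0.13), and the mannosyltransferase Pigb (0.50 ± 0.14), with adjusted p of 0.0089 to 0.036 in the edgeR test. Piga, the catalytic subunit of the opening step, had 0.03 ± 0.13 and did not pass. The count changed with the library left out. Without FOXP3 ΔE2 replicate 2 it was 0 (14 had an unadjusted p under 0.05 as higher), and the 8 genes then had adjusted p of 0.056 to 0.20 and log2 fold changes of 0.40 to 0.67, against 0.47 to 0.74 with all libraries. Calls over all genes fell to 176 in that setting, against 903 with all libraries. The count of anchor synthesis genes called higher was 3 without FOXP3 FL replicate 1, 2 without FOXP3 FL replicate 2 and 4 without the composition factor. With the replicate block it was 15, when 21.5% of all genes were called.

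Of 23 other GPI-anchored surface genes of T cells, 16 were tested, of which 3 rose, 1 fell and 12 did not pass, with a median of 0.15. The share called was 25%, against 6.17% of all genes, again for a list chosen with earlier results of these data known. With the replicate block 5 rose and 2 fell, when 21.5% of all genes were called. Cd160, a receptor for HVEM on T and NK cells, rose most, at 118 ± 9.11 CPM in FOXP3 ΔE2 Treg and 45.6 ± 5.63 CPM in FOXP3 FL Treg (1.38 ± 0.12, adjusted p = 9.5e-07, edgeR). Nt5e, the gene of the ectoenzyme CD73 that makes adenosine, averaged 933 ± 183 CPM in FOXP3 ΔE2 Treg and 628 ± 84.6 CPM in FOXP3 FL Treg (0.57 ± 0.15, adjusted p = 0.032, edgeR). Bst2, the tetherin gene, which the interferon list below shares, also rose (0.43 ± 0.12, adjusted p = 0.036, edgeR), and Cd24a fell (-0.51 ± 0.12, adjusted p = 0.013, edgeR). Thy1, whose product is the best known GPI-anchored protein of T cells, had 0.07 ± 0.14 and did not pass. Cd160 passed with any 1 library left out, whereas the other 3 calls did not all hold: 3 were lost without FOXP3 ΔE2 replicate 2 or FOXP3 FL replicate 3, 2 without FOXP3 FL replicate 1 or 2 and 1 without FOXP3 ΔE2 replicate 3 (adjusted p 0.050 to 0.23).

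**Figure D4:**
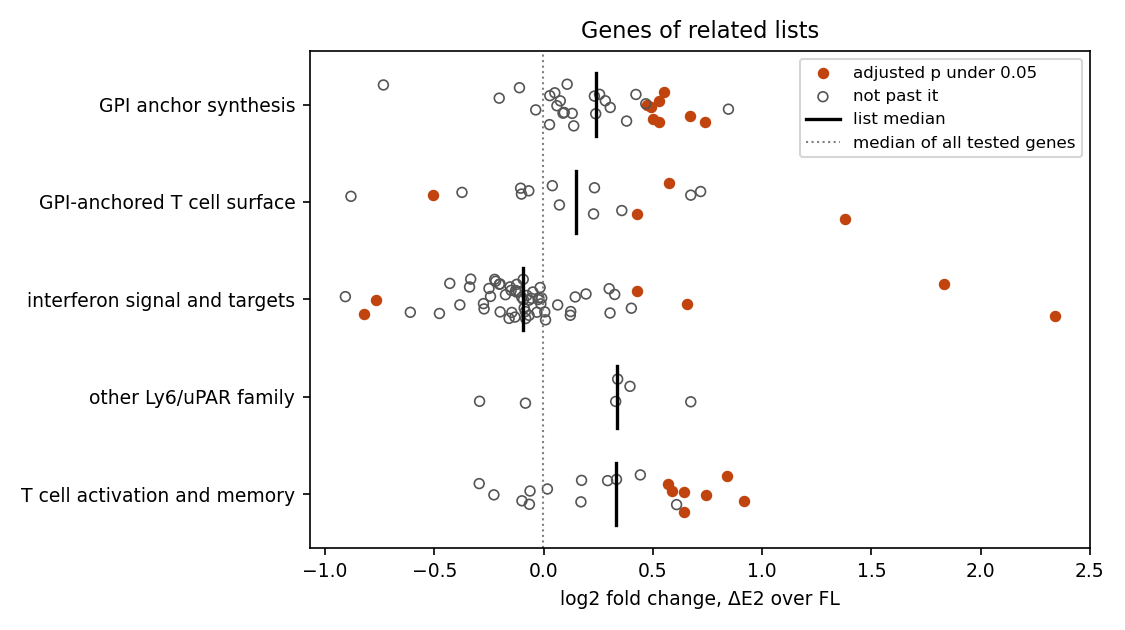
Log2 fold change of FOXP3 ΔE2 over FOXP3 FL for each tested gene of 5 lists, with filled points for adjusted p under 0.05 in the edgeR test, a black bar for the list's median and a dotted line for the median of all genes. The anchor synthesis genes have a median of 0.24 and the interferon genes one of -0.09, with Ifng and Cxcl10 far above the other interferon genes.

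Ly6a, Ly6c1, Ly6c2 and Ly6e are known as interferon-induced genes, so the interferon genes are given beside them. Of 60 tested genes of interferon signalling and response 4 rose, 2 fell and 54 did not pass, with a median of -0.09 and 15 positive values. The share called was 10.0%, against 6.17% of all genes. With the replicate block 7 rose and 8 fell, when 21.5% of all genes were called. This list too was chosen with earlier results of these data known. Ifng, the gene of interferon-γ, averaged 1085 ± 124 CPM in FOXP3 ΔE2 Treg and 214 ± 44.1 CPM in FOXP3 FL Treg (2.34 ± 0.16, adjusted p = 1.6e-08, edgeR). Among its known targets, the chemokine gene Cxcl10 (1.83 ± 0.22), the PD-L1 gene Cd274 (0.66 ± 0.13) and Bst2 rose, and Cmpk2 fell (-0.82 ± 0.20). Socs1, a feedback inhibitor of cytokine signals, fell as well (-0.77 ± 0.16). Irf1, an interferon-induced transcription factor, had 424 ± 42.4 CPM in FOXP3 ΔE2 Treg and 429 ± 40.5 CPM in FOXP3 FL Treg (-0.02 ± 0.13) and did not pass. The calls of Ifng and Cxcl10 held with any 1 library left out. Of the 6 calls, 4 were lost without FOXP3 ΔE2 replicate 2, 3 without FOXP3 FL replicate 1 and 1 without each of FOXP3 ΔE2 replicate 3, FOXP3 FL replicate 2 and FOXP3 FL replicate 3 (adjusted p 0.054 to 0.21). Without the composition factor 5 fell.

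Ly6C and Sca-1 are also used as surface marks of activated and memory T cells. Of 19 tested genes of T cell activation and memory, 7 rose, 0 fell and 12 did not pass, with a median of 0.33 and 14 positive values. The share called was 36.8%, against 6.17% of all genes. Since the list was chosen with earlier results of these data known, this share is a description and not a test. With the replicate block 9 rose and 0 fell, when 21.5% of all genes were called, and without the composition factor 6 rose. Cxcr3, a chemokine receptor of T helper 1 cells, averaged 190 ± 12.9 CPM in FOXP3 ΔE2 Treg and 101 ± 4.63 CPM in FOXP3 FL Treg (0.92 ± 0.12, adjusted p = 5.8e-05, edgeR). The integrin gene Itga4 (0.74 ± 0.14) and the IL-7 receptor gene Il7r (0.64 ± 0.12) rose too, as did Cd69, an early activation marker (0.84 ± 0.17), the lymph node homing receptor Ccr7 (0.59 ± 0.14), Cd5 (0.64 ± 0.14) and Cd44 (0.57 ± 0.15). Cxcr3, Itga4 and Il7r passed with any 1 library left out. Of the 7 calls, 4 were lost without FOXP3 ΔE2 replicate 2, 2 without each of FOXP3 ΔE2 replicate 3, FOXP3 FL replicate 1 and FOXP3 FL replicate 2, and 1 without FOXP3 FL replicate 3 (adjusted p 0.052 to 0.14).

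The genes whose profile over the 6 libraries was nearest to that of Ly6c2, by the root mean square (RMS) difference of centred log2 CPM among 9284 genes, were Ifng, Lilr4b, Susd3, Cxcl10 and Ccl20. Ifng was nearest, at an RMS of 0.29 log2 units, and the others lay at 0.39 to 0.47. Their log2 fold changes were 2.34, 2.01, 1.80, 1.83 and 1.78, all below that of Ly6c2. For Ly6a the nearest were Prf1, the perforin gene (RMS 0.058), Plscr1 (0.064), Riox2 (0.075), Zfp239 (0.076) and M6pr (0.091). Prf1 averaged 82.2 CPM in FOXP3 ΔE2 Treg and 48.2 CPM in FOXP3 FL Treg. Likeness over 6 libraries of 2 groups rests largely on the difference between the groups.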

How the data were processed

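Per the submitters' processing notes, the tools were STAR 2.5, bcl2fastq, Subread 1.5.1 with featureCounts, and edgeR 3.20.8, on build mm10. The deposited table held, per the file headers, raw read counts for each gene in each library and 6 columns of log2 CPM, which were not used. How its genes were selected is not stated.

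All values were computed from the deposited counts in R 4.3.3 with edgeR 4.0.16: filterByExpr (14632 of 14777 genes kept), TMM scaling, a robust quasi-likelihood fit with group as the only term, a two-sided test and Benjamini-Hochberg adjustment over all tested genes (threshold 0.05). CPM values are TMM-scaled. The model was tested on simulated data. The Ly6 genes and the gene lists were chosen with earlier results of these data known. Named genes are the 5 Ly6 genes, the 5 nearest profiles (mean CPM of at least 5) for each of Ly6c2 and Ly6a, genes of each list with the smallest p, neighbours past the threshold and cell type markers. Gm8000, Ly6i, Ly6d, Lynx1, Thy1, Piga and Irf1 were added after their values were seen.

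Deviations of libraries with the same replicate number correlated at 0.39, 0.21 and 0.19 across genes, which passed the rule for pairing (each over 0.1), although no label states what a number stands for. Those with different numbers correlated at -0.29 to 0.097. The model above leaves the number out, and the block was run as an alternative. With the block the biological coefficient of variation was 9.20%, against 13.1% without it. A gene that did not pass in the model above is therefore not shown to be unchanged. Alternatives were the replicate block, DESeq2 1.42.0 (size factors and test), no composition factor, a filter of CPM 5 or more in 3 libraries, no filter, each library left out and, chosen after seeing the data, levels per longest coding transcript. Upstream sequences were from RefSeq (2 of 5 genes matched) and coding sequences from GENCODE. No protein sequences were used here.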

Additional observations from a re-analysis of the deposited data

How the results depend on the processing

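No fold change of the 5 Ly6 genes changed sign under any alternative run, and Ly6a, Ly6c1 and Ly6c2 stayed past the threshold in each. Since the genes were chosen on this contrast, these runs describe them and do not test them. With the replicate block 5 of the 5 Ly6 genes were called, as were 1678 genes higher and 1471 lower in all, 4 chromosome 15 neighbours and 3 other Ly6 family genes as higher, 15 anchor synthesis genes as higher and 1 as lower, 5 GPI-anchored surface genes as higher and 2 as lower, and 7 interferon genes as higher and 8 as lower. Without the composition factor Ly6a had a log2 fold change of 0.61 and Ly6e 0.20, with 264 genes higher and 954 lower in all, 4 anchor synthesis and 1 surface gene higher, and 5 interferon genes lower. DESeq2 called 2 surface genes lower and 4 of the 5 Ly6 genes, Ly6e included, when it called 9.88% of all genes. With CPM of at least 5 in 3 libraries 0 neighbours were lower by the edgeR test (1 at an unadjusted p under 0.05), and Ly6k was filtered out and gave no value. Summing Ly6c1 and Ly6c2 gave 1.80. By CPM without length, averaged over all libraries, Ly6e ranked 1 and Ly6a 2 among the 5. In FOXP3 ΔE2 Treg alone Ly6a led (3394 against 3209 CPM), and in FOXP3 FL Treg Ly6e led (2544 against 2018 CPM).

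With each library left out, log2 fold changes ran from 0.68 to 0.83 for Ly6a, 1.10 to 1.48 for Ly6c1, 2.36 to 2.67 for Ly6c2, 0.28 to 0.38 for Ly6e and 0.55 to 0.90 for Ly6k, and the difference in Ly6c2 share from 15.6 to 24.9 percentage points. Genes called higher ran from 125 to 780 and lower from 51 to 587, Ly6 genes from 3 to 4, anchor synthesis genes from 0 to 9 higher and 0 to 1 lower, surface genes from 1 to 3 higher and 0 to 2 lower, interferon genes from 2 to 5 higher and 0 to 2 lower, and neighbours from 0 to 1 lower. The causes were not tested. With 3 libraries a group, many calls on the moderately changed lists were lost when 1 library was left out. Calls over all genes also moved, from 176 to 1367 by the library left out, against 903 with all libraries. Ly6k rests on 41 to 97 reads a library.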
